A study of Mus musculus with 24 samples.

Results

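The 38 genes described here encode the machinery that folds proteins in the endoplasmic reticulum (ER) and the sensors and factors of the unfolded protein response. They were listed by name, with earlier results of these data known. Of the 38 genes, 33 were measured in mouse liver, among 8251 genes on the array. Each of the 33 had at least 1 probe set, an oligonucleotide set read as 1 transcript, that the annotation gives to exactly 1 gene. They held 46 such probe sets, and for the 10 genes with more than 1 the brightest stands for the gene unless another is named. *Creb3l3*, *Ern1*, *Sil1* and *Sdf2l1* had no probe set in the annotation used here, and *Sec61g* lay only on one that it shares with other genes.

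Liver RNA of 24 male mice was hybridised to 24 Affymetrix U74Av2 arrays, and the mice formed 8 groups of 3. Wild-type mice and PPARα-null mice, which carry a germline disruption of *Ppara*, the gene of a lipid-sensing nuclear receptor, were 9 to 12 weeks old on a mixed SV129/C57BL/6 background. Each strain had a control group, a heat shock group (HS, 40 minutes at 42 °C), a group fed the PPARα agonist WY-14,643 (WY) at 500 ppm for 1 week, and a group given WY and then HS (WY+HS). The study's text gives 4 hours after HS for these livers, whereas the labels list several times and tie none to a sample, and mice without HS were kept at room temperature. Because the null mice lack the receptor in all tissues, an effect of the receptor in the liver and one elsewhere in the body cannot be told apart.

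Secreted and membrane proteins enter the ER through the Sec61 channel, bind the Hsp70 chaperone BiP and the lectin chaperones calnexin and calreticulin, and receive disulfide bonds from protein disulfide isomerases. Proteins that fail to fold are returned to the cytosol and degraded. When unfolded proteins build up, the sensors IRE1, PERK and ATF6 start the unfolded protein response, in which the transcription factors XBP1, ATF6 and ATF4 raise many of these genes. Hepatocytes make most of the proteins of blood plasma and hold a large ER, whereas the classical HS response, driven by HSF1, acts mostly on chaperones of the cytosol.

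Values are probe set intensities, a brightness that follows the amount of transcript, after quantile normalization over the 24 arrays. Values under 15.7 were set to that floor, and differences are on the log2 scale. A change was called at a Benjamini-Hochberg adjusted p under 0.05 over 12422 probe sets with limma, which fits 1 mean per group and pools the spread over the 8 groups, and every adjusted p below comes from that fit. Spreads are SD with n = 3 mice per group. *Hyou1*, *Calr* and *Ssr4* read at the floor in all 24 mice, *Uggt1* in 23 and *Ddit3* in 22, and no difference of *Hyou1*, *Calr* or *Ssr4* could be measured. *Eif2ak3* and *Sec63* lay at the floor in some mice, and 26 members were above it in all mice.

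*Ppara*, the targeted gene, read 181 to 357 (median 302) in the 12 wild-type mice and 103 to 210.2 (median 163) in the 12 null mice, so that the ranges overlapped, and the difference between the control groups did not pass the test (log2 -0.92, SE 0.22, limma adjusted p = 0.0594). The sources used here do not say whether its probe set lies in the disrupted part. The 4 of 5 hepatocyte markers that were measured summed to between 22134 and 24510 over all mice. Array medians before normalization ran from 15.2 to 40.5. Among wild-type HS mice, mouse 5 was the highest of its group for 20 of the 26 members above the floor in all mice and the lowest for 2.

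The promoters are shown for the ER stress sites that their windows hold, and these sites were not tested against the changes below. RefSeq windows of 300 bases (250 before to 50 after the transcription start, build GRCm38.p6) were matched to 31 of the 38 genes. *Manf*, *Derl1*, *Erp29*, *Atf6*, *Sil1*, *Hyou1* and *Sec61a1* were not matched. Both strands were searched for the ER stress response element (ERSE, which is CCAAT, any 9 bases and CCACG), its variant ERSE-II (ATTGG, any 1 base and CCACG), the unfolded protein response element (UPRE, TGACGTGG), the C/EBP-ATF element (CARE, TGATGNAAN) and the heat shock element (HSE, which is TTC, GAA and TTC with any 2 bases between neighbours). An ERSE was found in 6 genes, *Hspa5*, *Hsp90b1*, *Dnajc3*, *Calr*, *Canx* and *Pdia6*, and in 39 (0.119%) of all 32851 windows of the same length. An ERSE-II was found in *Dnajb11* and *Herpud1* (12 windows, 0.0365%). The UPRE was in none of these genes (222 windows, 0.676%), the CARE in *Herpud1* (1299 windows, 3.95%) and the HSE in *Creb3l3* (196 windows, 0.597%). No 2 of the matches in these genes overlapped. Of the 11 members called in at least 1 comparison, 9 had a window and 2 of those held an ERSE or ERSE-II, *Dnajc3* and *Pdia6*. Of the 22 measured members never called, 18 had a window and 6 held one. These 22 include *Hyou1*, *Calr* and *Ssr4*, which were at the floor in all mice and could not be called, and *Calr* is among the 6. The 2 counts are therefore not set against each other. A match describes the letters of the window and no more. The windows of *Hspa5* (chr2:34771840-34772139, plus strand) and *Pdia6* (chr12:17266339-17266638, plus strand) carry an ERSE, in capitals, and those of *Xbp1* (chr11:5520391-5520690, plus strand), *Ppib* (chr9:66059919-66060218, plus strand) and *Serp1* (chr3:58525835-58526134, minus strand), which fell together in 2 comparisons below, carry none of the 5 motifs.
Hspa5: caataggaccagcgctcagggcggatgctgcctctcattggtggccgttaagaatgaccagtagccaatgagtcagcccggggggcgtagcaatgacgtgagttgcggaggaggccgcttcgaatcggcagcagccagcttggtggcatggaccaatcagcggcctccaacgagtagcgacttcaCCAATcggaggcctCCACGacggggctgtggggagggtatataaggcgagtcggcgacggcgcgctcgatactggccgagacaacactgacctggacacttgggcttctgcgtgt
Pdia6: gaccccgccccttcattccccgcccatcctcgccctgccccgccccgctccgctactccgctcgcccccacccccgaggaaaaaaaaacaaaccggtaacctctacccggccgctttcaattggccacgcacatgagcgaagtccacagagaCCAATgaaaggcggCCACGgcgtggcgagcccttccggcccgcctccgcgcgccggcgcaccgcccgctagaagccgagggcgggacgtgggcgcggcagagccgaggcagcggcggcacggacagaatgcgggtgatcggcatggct
Xbp1: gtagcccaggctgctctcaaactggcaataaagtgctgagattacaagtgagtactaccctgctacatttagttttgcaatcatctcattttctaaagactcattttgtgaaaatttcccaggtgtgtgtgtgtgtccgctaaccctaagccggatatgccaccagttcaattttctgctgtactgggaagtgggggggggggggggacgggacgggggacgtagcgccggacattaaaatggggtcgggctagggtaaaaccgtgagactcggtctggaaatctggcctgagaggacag
Ppib: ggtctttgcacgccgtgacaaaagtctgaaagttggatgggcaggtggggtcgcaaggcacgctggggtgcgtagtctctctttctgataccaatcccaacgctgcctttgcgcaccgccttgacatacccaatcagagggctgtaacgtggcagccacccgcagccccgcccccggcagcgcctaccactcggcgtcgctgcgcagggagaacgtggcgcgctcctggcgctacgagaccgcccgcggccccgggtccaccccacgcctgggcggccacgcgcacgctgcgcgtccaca
Serp1: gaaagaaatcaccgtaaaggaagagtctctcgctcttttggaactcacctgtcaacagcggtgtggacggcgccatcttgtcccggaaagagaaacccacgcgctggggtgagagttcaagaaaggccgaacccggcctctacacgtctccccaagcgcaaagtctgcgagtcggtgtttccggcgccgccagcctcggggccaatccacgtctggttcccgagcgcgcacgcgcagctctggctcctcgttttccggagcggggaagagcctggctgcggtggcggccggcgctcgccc
The other ERSE and ERSE-II sites are given with 10 bases on each side, read along the strand of the gene, with the fixed letters of the motif in capitals. They lie at chr10:86705628-86705666 and chr10:86705523-86705561 (*Hsp90b1*, minus strand), chr14:118937817-118937855 (*Dnajc3*, plus strand), chr8:84847065-84847103 (*Calr*, minus strand), chr11:50325790-50325828 (*Canx*, minus strand), chr16:22857842-22857872 (*Dnajb11*, plus strand) and chr8:94386367-94386397 (*Herpud1*, plus strand). In *Calr* and the downstream site of *Hsp90b1* the motif runs against the gene and reads as its reverse complement.
Hsp90b1 upstream: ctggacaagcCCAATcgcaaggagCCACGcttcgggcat
Hsp90b1 downstream: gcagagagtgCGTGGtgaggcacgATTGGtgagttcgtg
Dnajc3: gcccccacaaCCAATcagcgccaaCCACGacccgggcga
Calr: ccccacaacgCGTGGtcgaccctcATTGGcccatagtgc
Canx: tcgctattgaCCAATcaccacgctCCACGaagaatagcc
Dnajb11: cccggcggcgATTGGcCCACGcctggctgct
Herpud1: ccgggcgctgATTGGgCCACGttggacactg

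WY in wild-type mice lowered 6 of the 33 members and raised none. *Xbp1*, the main transcription factor downstream of IRE1, fell to 37.5% of the control level, and *Pdia5*, a disulfide isomerase, to 29.4%. The prolyl isomerase *Ppib* (cyclophilin B), the channel subunit *Sec61a1*, the translocon stabiliser *Serp1* and the stress sensor *Atf6* fell to between 55.1% and 69.4%. Of all 8251 genes 12.8% were called in this comparison (6.12% downward), against 18.2% of the members. Among the 4470 genes that average at least 2 times the floor the share called in either direction was 20.7%, against 23.1% of the 26 members at that level. Counted in either direction, the members' share thus lay near that of genes of similar brightness. All calls of members were downward, and the downward share of the 4470 genes was not counted. The median log2 difference of those 26 members was -0.29, against -0.02 for the 4470 genes.

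*Xbp1* (probe set 94821_at) read 512, 498 and 521 in wild-type controls and 224, 175 and 179 after WY. All WY mice lay far below all controls (510.4 ± 11.7 against 193 ± 27.0, log2 -1.42, SE 0.25, adjusted p = 0.000992). *Pdia5* (96831_at), which shares the thioredoxin fold of the family, read 192, 247 and 252 in controls and 61.9, 66.6 and 73.6 after WY. The WY mice again lay far below (log2 -1.77, SE 0.26, adjusted p = 0.000176). *Ppib* (94915_at), which speeds the turn of proline bonds in new chains, read 559.6, 490.0 and 535 in controls and 344, 337 and 351 after WY. Its WY mice lay within a narrow band below the controls (528 ± 35.3 against 344 ± 7.42, log2 -0.62, SE 0.06, adjusted p = 5.03e-06).

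*Sec61a1* (97882_at), the pore of the channel, read 556, 592 and 524 in controls and 349.9, 352 and 369 after WY, with no overlap (log2 -0.64, SE 0.15, adjusted p = 0.0107). *Serp1* (95708_at) read 645, 595 and 728 in controls and 525, 409 and 435 after WY. The groups did not overlap, but the change was small against its error (log2 -0.53, SE 0.16, adjusted p = 0.044), and it failed the test under 6 of the 11 alternatives, without any 1 of the 3 control mice and without WY mouse 8 or 9. *Atf6* (104215_at), a membrane-bound factor that is cut free under stress, was dim, with 42.1, 41.7 and 40.0 in controls and 22.9, 24.9 and 20.7 after WY. All WY mice lay below all controls (log2 -0.86, SE 0.17, adjusted p = 0.00288), and the call was lost with a floor of 33.9, which lies above the WY values.

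The fallen genes spread over the roles. Of the 6 measured members of the disulfide isomerase family, *Erp29* counted among them, 1 fell. Of the 2 prolyl isomerases 1 fell, of the 6 translocon genes 2, of the 2 sensors 1 and of the 3 transcription factors 1. None of the 2 Hsp70 system members, *Hsp90b1*, the 3 J-domain co-chaperones, the 3 lectin system members, *Manf* or the 4 degradation factors passed. Among the genes counted by role, *Hyou1*, *Calr*, *Uggt1*, *Ssr4*, *Eif2ak3* and *Ddit3* read at the floor in all wild-type controls, so no fall of these could be measured. In the Hsp70 and lectin systems a fall could thus show only in *Hspa5* and *Canx*. *Hspa5* (BiP, 101955_at), the central Hsp70 chaperone, read 659, 800.5 and 879 in controls and 593, 454 and 537 after WY. Its WY mice lay below the controls, but the difference did not pass (log2 -0.56, SE 0.23, adjusted p = 0.173). *Herpud1*, a degradation factor, had a log2 difference of -0.91 (adjusted p = 0.284) with widely spread controls (606, 812 and 1292). *Dnajb9*, a co-chaperone that binds IRE1, had the highest difference of the members not called, 0.67 (adjusted p = 0.41). These are whole-liver values, in which fewer cells of a type and less RNA per cell cannot be told apart.

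**Figure D1:**
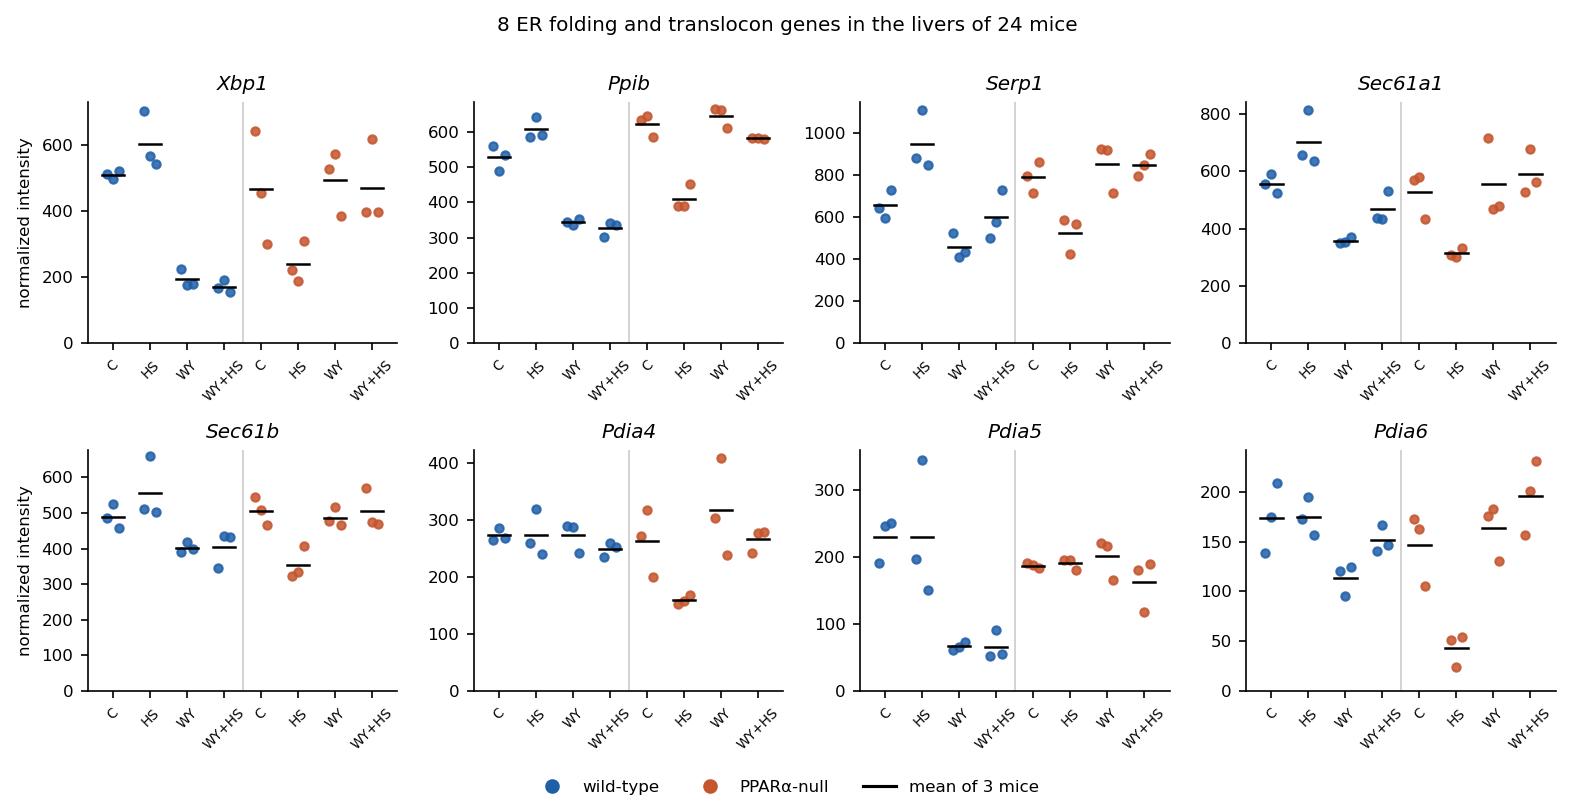
Normalized intensity (vertical axis, linear, from 0) of *Xbp1*, *Ppib*, *Serp1*, *Sec61a1*, *Sec61b*, *Pdia4*, *Pdia5* and *Pdia6* in each of 24 livers, by group along the horizontal axis (C, control), with wild-type mice in blue, PPARα-null mice in orange and a bar at the mean of 3 mice. *Xbp1*, *Ppib* and *Pdia5* are low in the wild-type WY and WY+HS groups, and all genes shown except *Pdia5* are low in the null HS group.

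Of 118 other ER genes in fixed lists 85 were measured, and WY in wild-type mice changed 13 of them (15.3%, against 12.8% of all genes and 20.7% of the brighter genes), 9 downward and 4 upward, with a median log2 difference of -0.10 against 0.00 over all genes. The 4 with the smallest adjusted p all fell. *Os9*, a lectin that hands misfolded glycoproteins to degradation, fell the most of these (log2 -2.35, adjusted p = 1.2e-05), and *Prkcsh*, the glucosidase II β subunit, fell less (log2 -0.46, adjusted p = 1.26e-05). *Tram1*, which lies beside the Sec61 channel, fell as well (log2 -0.89, adjusted p = 3.85e-05), as did *Kdelr2*, the receptor that returns ER residents from the Golgi (log2 -0.68, adjusted p = 0.000247).

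Some markers of hepatocytes and of other cells also read lower after WY, while others did not. The hepatocyte markers summed to 22981 to 24281 in wild-type controls and 22134 to 22759 after WY, and 2 of the 4 fell, *Ttr* (log2 -1.43, adjusted p = 3.81e-05) and *Cps1* (log2 -0.34, adjusted p = 6.78e-05). The 2 of 5 exocrine pancreas markers that were measured summed to 248 to 393 in wild-type controls and 64.3 to 106 after WY, the 5 endothelial markers to 365 to 446 and 237 to 268, the 5 Kupffer cell and macrophage markers to 281 to 405 and 189 to 298 (overlapping), and the 5 plasma and B cell markers to 284 to 341 and 207 to 228, with *Prdm1* at the floor in all mice. Of the 3 measured cholangiocyte markers *Krt7* and *Epcam* were at the floor in all mice. The 4 measured stellate cell and fibroblast markers summed to 110 to 130 in wild-type controls and 90.2 to 139 after WY. The 5 skeletal muscle markers summed to 138 to 878 and 134 to 149, and both lists overlapped. The part of these cells in the falls of the ER genes was not tested. Without scaling of the arrays the median of the 4470 genes moved by 0.45 and that of the 26 members by 0.18, which is -0.27 relative to the genes, and 1 member was called.

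In wild-type mice given WY and then HS, 4 members were lowered against control and none raised (12.1% of the members, against 12.6% of all genes and 6.34% downward, and 15.4% against 20.2% among the brighter genes). *Xbp1* read 166, 190.4 and 153 (log2 -1.59, SE 0.25, adjusted p = 0.000304), far below all controls. *Pdia5* read 52.4, 91.3 and 55.4 (log2 -1.83, SE 0.26, adjusted p = 0.000119). *Ppib* read 301, 341 and 336 (log2 -0.70, SE 0.06, adjusted p = 1.25e-06), and in both genes the groups did not overlap. These 3 genes fell also with WY alone, which was set against the same control mice, and passed the test here under every alternative and with any mouse left out. The fourth, *Dnajc3* (94343_at), a co-chaperone of BiP that also restrains PERK, read 210.2, 174 and 213 in controls and 134, 122 and 160.0 after WY+HS (log2 -0.52, SE 0.14, adjusted p = 0.018). All its WY+HS mice lay below the controls, but the call was lost without control mouse 1 or 3 or WY+HS mouse 10 or 11, and under 4 of the 11 alternatives, the mean of its 4 probe sets among them (log2 -0.24). After WY alone it read 156, 136 and 156 (log2 -0.41, SE 0.14, adjusted p = 0.0651).

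The other genes lowered by WY alone did not pass after WY+HS. *Sec61a1* read 436, 435 and 530.0 (log2 -0.26, SE 0.15, adjusted p = 0.386), with 1 mouse inside the range of the controls. *Serp1* read 501, 574 and 731 (log2 -0.14, SE 0.16, adjusted p = 0.873) and overlapped its controls. *Atf6* read 31.9, 23.7 and 37.0 (log2 -0.44, SE 0.17, adjusted p = 0.134), all below its controls. Set directly against WY alone, WY+HS left no member past limma's test (5 at an unadjusted p under 0.05, 0.497% of all genes called). Without scaling 3 members were called, all downward, and so were 1431 of all 12422 probe sets, 20 of them upward. The unscaled median was -0.69 for the 4470 genes and -0.72 for the 26 members, so the members moved as the genes did. With scaling the differences from WY were 0.38 for *Sec61a1*, 0.39 for *Serp1* and 0.42 for *Atf6*. *Atf4*, the factor made when PERK slows translation, had the highest (log2 0.61, SE 0.19, adjusted p = 0.231). Of the other ER genes 17 of 85 (20.0%, against 12.6% of all genes and 20.2% of the brighter genes) changed with WY+HS against control, 6 upward and 11 downward. *Atf3*, a stress-induced transcription factor, rose from 26.2 ± 8.99 to 686 ± 223 (log2 4.71, adjusted p = 1.17e-07) and also rose against WY alone (log2 4.07, adjusted p = 7.67e-06). *Tram1* (log2 -1.08, adjusted p = 4.36e-06), *Os9* (log2 -2.38, adjusted p = 9.54e-06) and *Prkcsh* (log2 -0.39, adjusted p = 5.61e-05) fell. Several of the same cell markers read low as with WY alone. The plasma and B cell markers (195 to 301) and the stellate cell and fibroblast markers (104 to 142) overlapped their controls. The hepatocyte markers summed to 22547 to 22647 after WY+HS, with *Ttr* (log2 -1.49, adjusted p = 2.55e-05) and *Cps1* (log2 -0.26, adjusted p = 0.000988) lower, the exocrine pancreas markers to 72.6 to 132, the endothelial markers to 229 to 328 and the Kupffer cell and macrophage markers to 197 to 275. Their part in the falls was not tested.

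With HS alone no member passed in wild-type mice by limma, nor by the test of the study's methods (6 members at an unadjusted p under 0.05). In this comparison 0.0485% of all genes were called. Most of the brighter members read above control all the same, 20 of the 26 that average at least 2 times the floor, with a median log2 difference of 0.23 against 0.00 for the 4470 genes. Without mouse 5 the median was 0.11 with 17 of 26 above control, and without mouse 6 it was 0.37. *Serp1* read 881, 1112 and 847 after HS (log2 0.52, SE 0.16, adjusted p = 0.551), all above the controls. *Ppib* read 587, 644 and 593 (log2 0.20, SE 0.06, adjusted p = 0.577), also without overlap. *Hspa5* read 1114, 1404 and 739.8 (log2 0.44, SE 0.23, adjusted p = 0.926), with mouse 6 inside the range of the controls. *Xbp1* read 703, 567 and 544 (log2 0.24, SE 0.25, adjusted p = 1.00). The highest difference was that of *Manf*, a secreted factor of ER stress (log2 0.68, adjusted p = 0.866), with 141, 117 and 202 in controls and 187, 405 and 183 after HS, where mouse 5 stood above the others. The lowest was that of *Herpud1* (log2 -0.83, adjusted p = 0.933). Of the 85 other ER genes none was called.

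HS in PPARα-null mice lowered 7 members and raised 1. *Pdia6*, a disulfide isomerase that also binds the IRE1 sensor, fell to 28.4% of control and *Xbp1* to 52.9%. The translocon genes *Sec61a1*, *Sec61b* and *Serp1* fell to between 59.7% and 69.9%, the isomerases *Ppib* and *Pdia4* to 66.0% and 61.7%, and *Atf4* rose to 171%. Of all genes 7.95% were called (4.5% downward and 3.45% upward), against 24.2% of the members. Among the 4470 brighter genes 12.3% were called, against 30.8% of the 26 brighter members. The median log2 difference of those members was -0.28, against -0.02 for the genes. When arrays were scaled to a common median instead, *Atf4* no longer passed and 8 members were called, all lower.

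*Pdia6* (94209_g_at) read 172, 163 and 105 in the null controls and 50.9, 24.6 and 54.0 after HS. The HS mice lay far below the lowest control (147 ± 36.5 against 43.2 ± 16.2, log2 -1.81, SE 0.27, adjusted p = 0.00058). *Ppib* read 634, 647 and 586 in null controls and 389, 391 and 453 after HS, again with a wide gap (log2 -0.60, SE 0.06, adjusted p = 3.35e-05). *Sec61a1* read 570.4, 581 and 435 in null controls and 307, 299.6 and 333 after HS (log2 -0.74, SE 0.15, adjusted p = 0.00702). Its HS mice agreed closely, while control mouse 15 was lower than the other controls. These 3 calls held with each of the 6 mice left out in turn. A dimmer probe set of *Pdia6* and the dimmer set of *Sec61a1* did not pass in the same mice, and with the mean of its probe sets *Sec61a1* was not called.

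*Pdia4* (95423_at), an isomerase with an extra thioredoxin domain, read 272, 317 and 200.2 in null controls and 153, 158 and 169 after HS (log2 -0.70, SE 0.17, adjusted p = 0.0202). The HS mice were tight and below all controls. *Sec61b* (93548_at), the small β subunit of the channel, read 546, 508 and 466 in null controls and 324, 334 and 408 after HS (log2 -0.52, SE 0.12, adjusted p = 0.0139). *Serp1* read 794, 713 and 859.9 in null controls and 586, 424 and 568 after HS (log2 -0.60, SE 0.16, adjusted p = 0.0319). In both genes all HS mice were below all controls. *Xbp1* read 643, 454 and 301 in null controls and 222, 188 and 311 after HS (466 ± 171 against 240.3 ± 63.2, log2 -0.92, SE 0.25, adjusted p = 0.0335). Here the groups overlapped, since control mouse 15 lay just under HS mouse 18. *Atf4* (100599_at) read 257, 335 and 339 in controls and 614, 573 and 412 after HS, all above the controls (log2 0.77, SE 0.19, adjusted p = 0.021).

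The called count depended on single mice. It was 3 without control mouse 13 or HS mouse 17, 4 without control mouse 14 or HS mouse 16, 7 without control mouse 15 and 10 without HS mouse 18. It was 0 where the fit held only the null control and HS arrays or where arrays were not scaled, and 3 by the test of the study's methods. By role, 2 of 6 members of the disulfide isomerase family, 1 of 2 prolyl isomerases, 3 of 6 translocon genes and 1 of 3 transcription factors fell, and 1 transcription factor rose. None of the Hsp70, Hsp90, co-chaperone, lectin, degradation or sensor members passed. *Hyou1*, *Calr*, *Uggt1*, *Ssr4* and *Ddit3* read at the floor in all null controls, so no fall of these could be measured. The brightest set of *Canx* spread from 46.2 to 184 within the null controls. *Hspa5* read 1097, 874 and 753 in null controls and 706, 657 and 537 after HS (log2 -0.51, SE 0.23, adjusted p = 0.256), without overlap. *Hsp90b1* (GRP94, 160499_at), the ER member of the Hsp90 family, read 2519, 1642 and 2237 in null controls and 2970.2, 2989 and 2381 after HS (log2 0.40, SE 0.24, adjusted p = 0.433), with overlap. *Erp29*, a thioredoxin-fold protein without the isomerase active site, had the highest difference of those not called (log2 0.80, adjusted p = 0.128).

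Of the 85 other ER genes 17 (20.0%, against 7.95% of all genes and 12.3% of the brighter genes) changed with HS in null mice, 14 downward and 3 upward, with a median log2 difference of -0.06. *Lman2*, a lectin that carries glycoproteins to the Golgi, fell from 249.5 ± 52.2 to 76.1 ± 11.2 (log2 -1.70, adjusted p = 0.000181). *Sar1b*, the GTPase that starts the coat of transport vesicles, fell from 272 ± 26.2 to 112 ± 32.3 (log2 -1.32, adjusted p = 0.00023), whereas WY in wild-type mice had raised it (log2 0.71, adjusted p = 0.0129). *Sec62*, a partner of the channel, fell (log2 -0.78, adjusted p = 0.00208), and so did *Kdelr2* (log2 -0.56, adjusted p = 0.00347). Some cell markers also differed between the HS-treated null livers and their controls, while others did not. The hepatocyte markers summed to 23035 to 24510 in null controls and 22835 to 23525 after HS. The Kupffer cell and macrophage markers summed to 272 to 493 and 374 to 417. Both lists overlapped, and none of their genes was called. The 4 of 5 measured stellate cell and fibroblast markers summed to 102 to 138 in null controls and 267 to 302 after HS, and 3 of them, *Col1a1*, *Col3a1* and *Des*, rose. The 5 endothelial markers summed to 249 to 330 and 396 to 438, and the 5 skeletal muscle markers to 112 to 170.2 and 116 to 751, with 1 high mouse. The plasma and B cell markers summed to 372 to 374 in controls and 277 to 424 after HS, and these and the skeletal muscle markers overlapped their controls. The 2 measured exocrine pancreas markers summed to 182 to 264 and 149.6 to 194, also with overlap. The median of their 2 log2 differences was 0.10, on the other side of control from the sum, and neither was called. The part of these cells in the falls of the ER genes was not tested.

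Of the 6 members that fell with WY in wild-type mice, 4 also fell with HS in null mice, namely *Ppib*, *Sec61a1*, *Serp1* and *Xbp1* (4 of the 6 and 4 of the 8 called there). The 2 comparisons share no mice. Of all genes 6.12% fell with WY in wild-type mice and 4.5% with HS in null mice. How many genes fell in both was not counted, so the overlap is not read as particular to the members. *Pdia5* and *Atf6* fell with WY in wild-type mice and not with HS in null mice. *Pdia5* read 191, 189 and 183 in null controls and 196, 197 and 181 after HS (log2 0.02, SE 0.26, adjusted p = 1.00), and *Atf6* read 43.9, 36.7 and 36.5 in null controls and 52.4, 43.9 and 35.1 after HS (log2 0.15, SE 0.17, adjusted p = 0.905). In both genes the groups overlapped. *Pdia4*, which fell with HS in null mice, read 266, 286 and 268 in wild-type controls and 290.3, 288 and 243 after WY, with overlap (log2 -0.00, SE 0.17, adjusted p = 1.00).

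**Figure D2:**
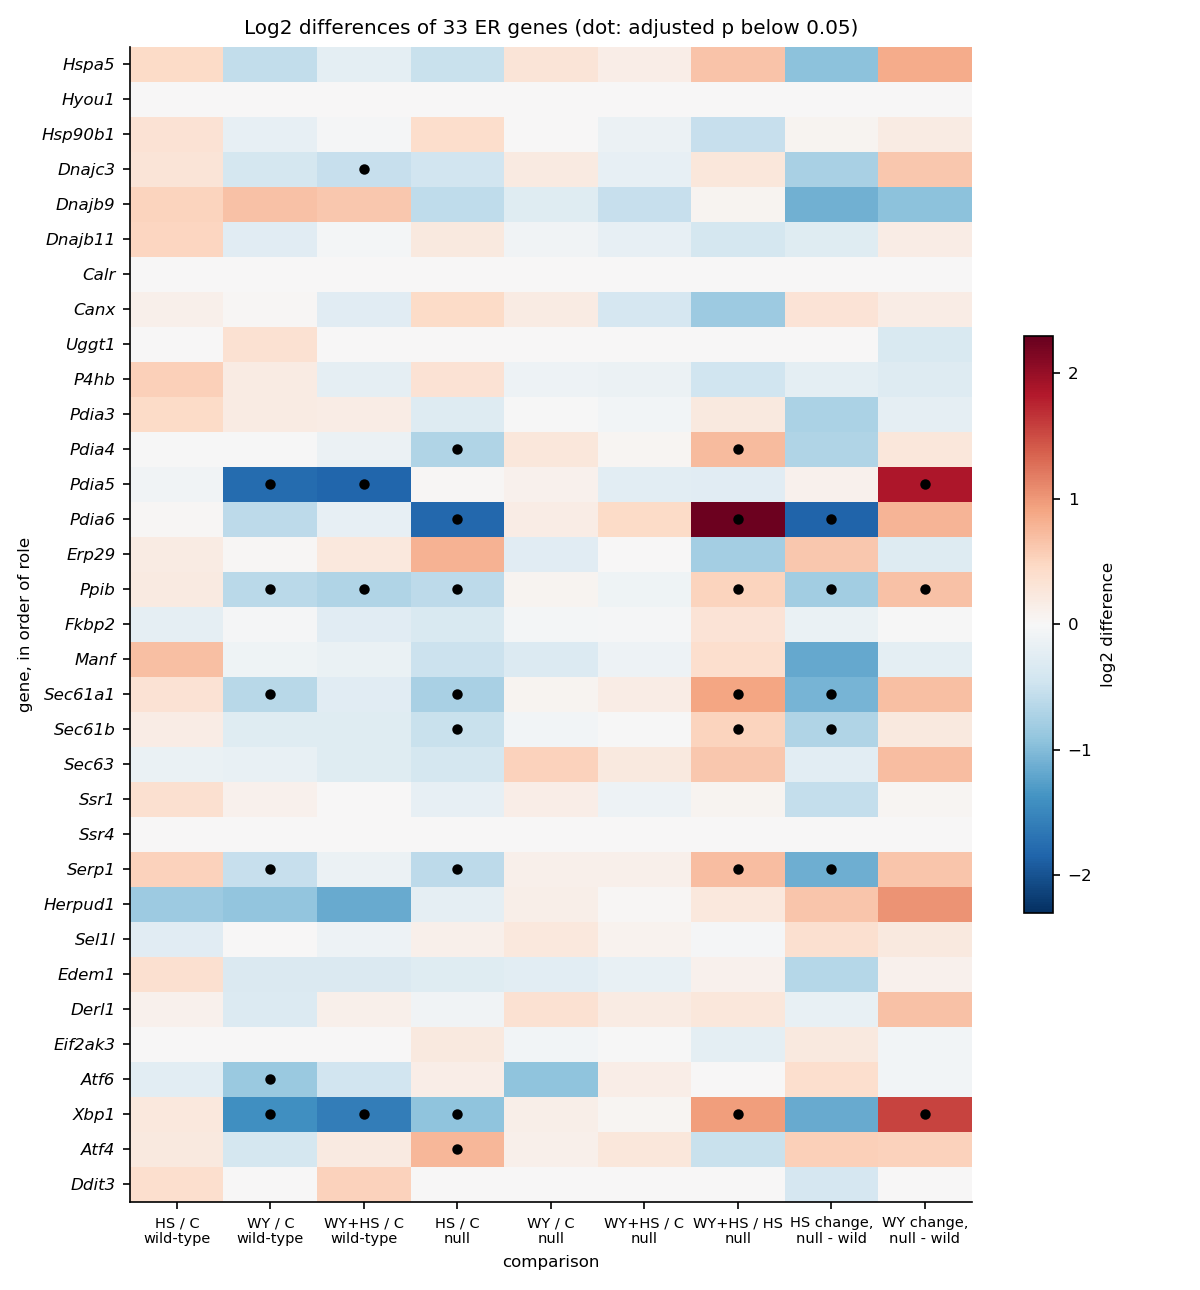
Log2 difference (colour, blue below and red above 0) of the 33 measured members, in rows ordered by role from chaperones to transcription factors, in 9 comparisons along the horizontal axis; the last 2 columns give the null minus the wild-type change. Dots mark an adjusted p under 0.05, of which there are 6 in the wild-type WY column and 8 in the null HS column, with none in the wild-type HS, null WY and null WY+HS columns.

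In PPARα-null mice no member passed limma's test with WY or WY+HS against control (0.0121% and 0.0242% of all genes called, 2 and 0 members at an unadjusted p under 0.05). *Xbp1* read 528, 573 and 386 after WY and 397, 618 and 397 after WY+HS, within the range of its controls. *Ppib* read 667, 663 and 611 after WY and 584, 584 and 579.7 after WY+HS. *Pdia5* read 221, 216 and 166 after WY and 181, 118 and 189.7 after WY+HS, the latter with 1 mouse below the others. *Atf6* was the exception in size. It read 19.6, 23.8 and 18.7 after WY, all below the null controls (log2 -0.92, SE 0.17, adjusted p = 0.132), a log2 difference like that in wild-type mice, and it passed by the test of the study's methods. After WY+HS it read 51.7, 35.7 and 44.2, a range that overlapped the controls (log2 0.16, SE 0.17, adjusted p = 1.00). None of the 85 other ER genes was called in either comparison.

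Set against HS alone, WY+HS in null mice raised 7 members and lowered none (21.2%, against 12.6% of all genes and 7.03% upward, and 26.9% against 19.7% among the brighter genes). The 7 are the genes that HS had lowered, and the 2 comparisons share the HS mice, so the values stand side by side and are no separate evidence. *Pdia6* read 156, 201 and 231 after WY+HS (log2 2.25, SE 0.27, adjusted p = 5.98e-05 against HS), all above the HS mice and around its controls. *Sec61a1* read 527, 680.0 and 565 (log2 0.91, SE 0.15, adjusted p = 0.00104) and *Ppib* stayed between its HS mice and controls (log2 0.51, SE 0.06, adjusted p = 0.00011). *Serp1* read 797, 849 and 902 (log2 0.70, SE 0.16, adjusted p = 0.00878), and *Sec61b* read 572, 475 and 470.3 (log2 0.51, SE 0.12, adjusted p = 0.0101). By the brightest probe set no WY+HS mouse overlapped the HS mice in these genes. The dimmer set of *Sec61a1* read 497, 597 and 400.1 after HS and 424, 359 and 376 after WY+HS, with overlap. Of the dimmer sets of *Pdia6*, 94208_at lay above its HS mice. The other, 94207_at, read 92.6, 91.2 and 65.9 after HS and 106.8, 92.5 and 104.6 after WY+HS, also with overlap. With the mean of its probe sets *Sec61a1* did not pass (log2 0.28).

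*Pdia4* read 243, 277 and 279 after WY+HS (log2 0.74, SE 0.17, adjusted p = 0.00998) and *Xbp1* rose against HS as well (log2 0.97, SE 0.25, adjusted p = 0.0186). Without HS mouse 17 the count was 4. It was 1 with only the arrays compared or without scaling, and 4 by the test of the study's methods. *Hspa5* read 956, 1192 and 862, above all HS mice, without passing (log2 0.66, SE 0.23, adjusted p = 0.0869). Of the 85 other ER genes 23 (27.1%, against 12.6% of all genes and 19.7% of the brighter genes) changed, 14 upward and 9 downward. *Sar1b* (log2 1.61, adjusted p = 2.44e-05), *Lman2* (log2 1.81, adjusted p = 7.14e-05), *Sec62* (log2 1.02, adjusted p = 0.000146) and *Get3*, the ATPase that delivers tail-anchored proteins to the ER (log2 1.18, adjusted p = 0.000664), rose. The stellate cell and fibroblast markers summed to 107 to 138 after WY+HS, below the HS mice, and the exocrine pancreas markers to 316 to 401, above them, with *Cela1* higher (log2 1.22, adjusted p = 0.0171) and *Prss2* lower (log2 -0.67, adjusted p = 0.0472). The endothelial markers summed to 371 to 405 and overlapped the HS mice. Their part in the difference was not tested.

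Between the control livers of the 2 strains no member passed limma's test (3 at an unadjusted p under 0.05, 0.909% of all genes called). *Dnajb11*, a co-chaperone of BiP, had the highest difference, null against wild-type (log2 0.67, SE 0.31, adjusted p = 0.486), followed by *Manf* (log2 0.65, SE 0.33, adjusted p = 0.52) and *Pdia3* (log2 0.53, SE 0.19, adjusted p = 0.273), an isomerase that works with calnexin. *Ppib* was higher by less but with a small error (log2 0.24, SE 0.06, adjusted p = 0.112). Among the other ER genes *Txndc12*, a small thioredoxin-fold protein, was lower in null controls (log2 -0.39, adjusted p = 0.0437).

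The HS change differed between the strains for 5 members, each of them lower in the null strain (15.2% of the members, against 1.88% of all genes and 1.09% downward, and 19.2% against 2.75% among the brighter genes). The difference of the changes, null minus wild-type, was -1.84 for *Pdia6* (SE 0.38, adjusted p = 0.0198) and -1.12 for *Serp1* (SE 0.23, adjusted p = 0.0175). It was -1.07 for *Sec61a1* (adjusted p = 0.0175), -0.80 for *Ppib* (adjusted p = 0.000153) and -0.70 for *Sec61b* (adjusted p = 0.0476). In wild-type mice *Pdia6* read 138, 174 and 209 in controls and 172, 195 and 156 after HS, and *Sec61b* read 485, 526 and 457 in controls and 511, 659 and 502 after HS. Wild-type *Sec61a1* read 657, 816 and 637 after HS. The wild-type group means of the 5 genes thus lay at or above control after HS, whereas those of the null mice lay below.

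For 18 of the 26 brighter members the null minus wild-type difference lay below the median of the 4470 genes, and their median was -0.60 against -0.01. Without wild-type HS mouse 5 the median was -0.33. *Xbp1* (log2 -1.15, SE 0.35, adjusted p = 0.122), *Manf* (log2 -1.18, SE 0.46, adjusted p = 0.255), *Hspa5* (log2 -0.95, SE 0.33, adjusted p = 0.183) and *Dnajc3* (log2 -0.75, SE 0.19, adjusted p = 0.0616) lay on the same side without passing. *Atf4* (log2 0.54, SE 0.27, adjusted p = 0.444) and *Herpud1* (log2 0.63, SE 0.64, adjusted p = 0.919) lay on the other. Of the 85 other ER genes 4 differed (4.71%, against 1.88% of all genes and 2.75% of the brighter genes), all lower in the null strain. They were *Sar1b* (log2 -1.51, adjusted p = 0.00473), *Lman2* (log2 -1.64, adjusted p = 0.0128), *Kdelr2* (log2 -0.74, adjusted p = 0.0156) and *Tram1* (log2 -0.68, adjusted p = 0.0402). The count of members was 2 without null control mouse 14 and 3 without null control mouse 13, wild-type control mouse 1 or 2, or wild-type HS mouse 5. The dimmer set of *Sec61a1*, 160291_at, did not pass (log2 -0.13, SE 0.25, adjusted p = 1.00), and with the mean of both sets the gene was not called (log2 -0.60, adjusted p = 0.12). Of the dimmer sets of *Pdia6*, 94208_at fell with HS in null mice, whereas 94207_at overlapped its null controls. The count of members was 1 with only the arrays compared, 0 without scaling and 3 on an asinh scale without a floor. *Sec61b* passed under 3 of the 11 alternatives and in 3 of the 12 fits that left out a mouse.

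**Figure D3:**
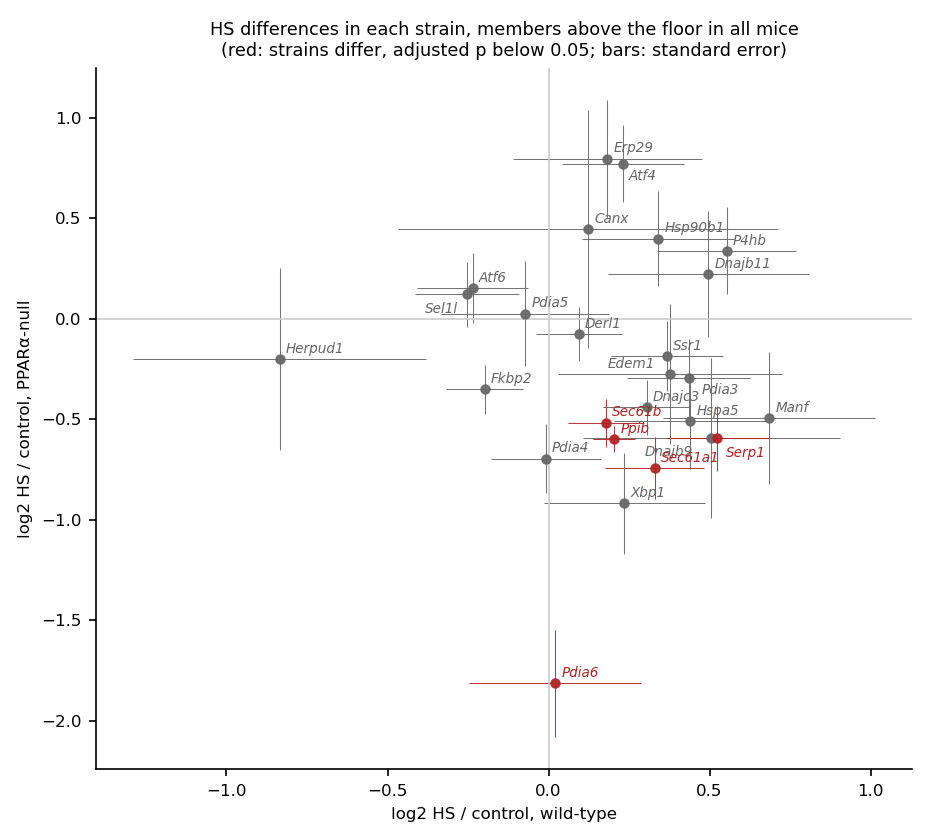
Log2 difference between HS and control in wild-type mice (horizontal axis) and in PPARα-null mice (vertical axis) for the 26 members above the floor in all mice, with standard errors as bars and the 5 members whose changes differed between the strains in red. The 5 red genes lie at or to the right of 0 and below 0, from *Sec61b* at -0.52 to *Pdia6* at -1.81 on the vertical axis.

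The WY change differed between the strains for 3 members, all of them lower in wild-type mice (9.09%, against 6.24% of all genes and 2.67% upward, and 11.5% against 10.3% among the brighter genes). Counted in either direction, the share lay near the background, and the upward share of the brighter genes was not counted. The null minus wild-type difference was 1.86 for *Pdia5* (SE 0.37, adjusted p = 0.00513), 1.55 for *Xbp1* (SE 0.35, adjusted p = 0.0137) and 0.67 for *Ppib* (SE 0.09, adjusted p = 0.00021). For *Atf6* it was -0.06 (SE 0.24, adjusted p = 1.00), and no difference between the strains was detectable. *Serp1* (log2 0.64, SE 0.23, adjusted p = 0.144) and *Sec61a1* (log2 0.69, SE 0.22, adjusted p = 0.0837) did not pass. Of the 85 other ER genes 6 differed (7.06%, against 6.24% of all genes and 10.3% of the brighter genes), so this share too lay near the background. Of these 6 genes 5 were lower in wild-type mice, among them *Kdelr2* (log2 0.84, adjusted p = 0.00176), *Tram1* (log2 0.90, adjusted p = 0.00203), *Os9* (log2 2.06, adjusted p = 0.00274) and *Prkcsh* (log2 0.35, adjusted p = 0.00826).

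Probe sets of the same gene did not always move together. *Pdia6* has 3. Probe set 94208_at read 139.9, 181 and 51.3 in null controls and 15.7, 15.7 and 23.8 after HS (log2 -2.59, SE 0.53, adjusted p = 0.00625), a fall like that of the brightest. Probe set 94207_at read 94.2, 87.7 and 91.8 in the same controls and 92.6, 91.2 and 65.9 after HS (log2 -0.15, SE 0.36, adjusted p = 1.00), with overlap. In wild-type mice 94207_at fell from 93.5, 88.4 and 87.8 to 28.3, 15.7 and 32.9 with WY (log2 -1.88, SE 0.36, adjusted p = 0.00188) and to 15.7, 34.0 and 62.8 with WY+HS (log2 -1.48, SE 0.36, adjusted p = 0.0113). The brightest set read 120.5, 95.2 and 125 after WY, all below its controls, and did not pass (log2 -0.61, SE 0.27, adjusted p = 0.207).

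For *Sec61a1* the dimmer set 160291_at fell with WY in wild-type mice as the brightest did (log2 -0.72, SE 0.17, adjusted p = 0.0112). In null mice it read 456, 458 and 402 in controls and 497, 597 and 400.1 after HS (log2 0.17, SE 0.17, adjusted p = 0.859), on the other side of control from the brightest. The mean of its probe sets therefore did not pass with HS in null mice. *P4hb*, the founding disulfide isomerase, was not called by either of its sets, and the dimmer one, 161926_r_at, spread from 19.2 to 98.3 within the null controls. Of the 4 sets of *Dnajc3*, 2 dimmer ones did not pass with WY+HS in wild-type mice (log2 -0.26, SE 0.15, adjusted p = 0.39 for 102414_i_at and log2 -0.17, SE 0.17, adjusted p = 0.769 for 102415_r_at), and 161868_r_at was at the floor in all mice. The sources used here do not say which part of each transcript the sets cover.

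**Figure D4:**
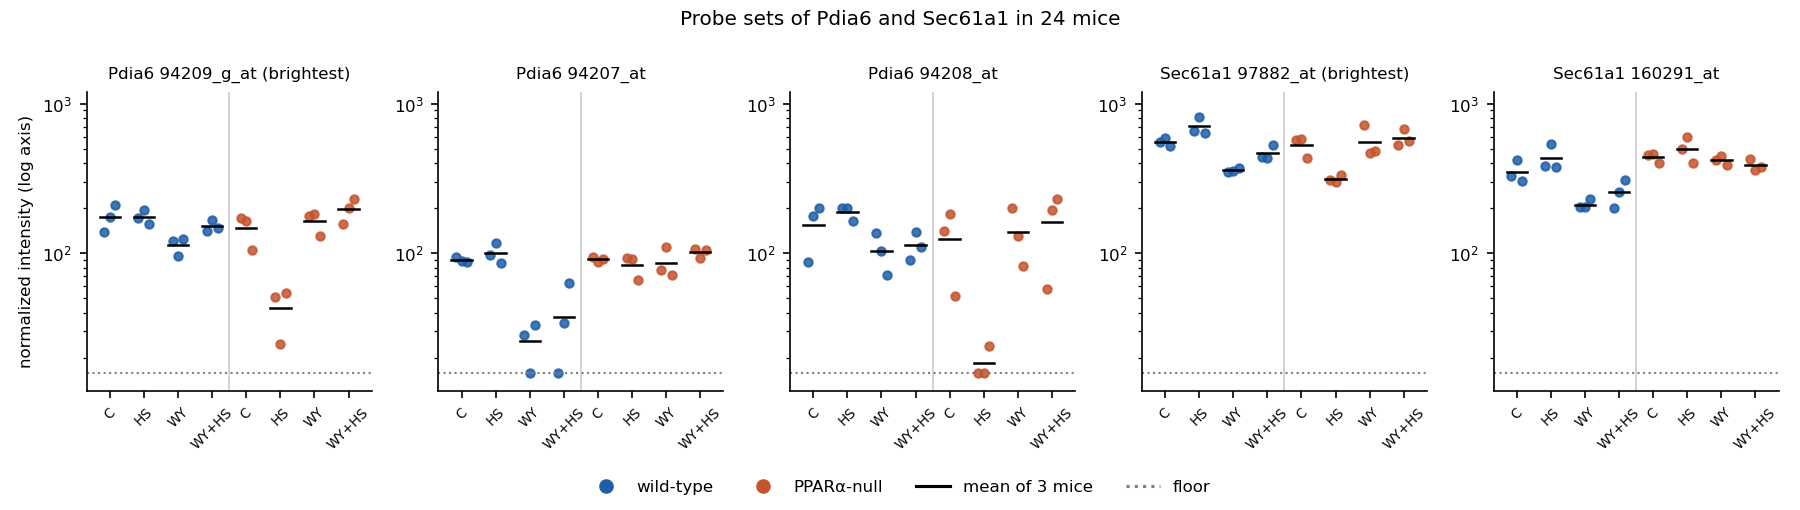
Normalized intensity (vertical axis, log scale) of the 3 probe sets of *Pdia6* and the 2 of *Sec61a1* in each of 24 livers, by group, with wild-type mice in blue, null mice in orange, a bar at the mean of 3 mice and a dotted line at the floor of 15.7. *Pdia6* 94208_at and 94209_g_at drop in the null HS mice and 94207_at drops in the wild-type WY and WY+HS mice.

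The other 22 measured members passed in no comparison by their brightest probe set. Among them, *Hsp90b1* read 1347, 1460.3 and 1742 in wild-type controls, 1742, 2435 and 1642 after HS, 1343, 1157 and 1489.7 after WY and 1212, 1457 and 1837 after WY+HS, and each treated range overlapped that of the controls. Null *Hsp90b1* read 1683, 3113 and 1776 after WY and 2281, 1824 and 1671 after WY+HS. *Hspa5* read 592, 657 and 739 after WY+HS in wild-type mice and 1180.0, 1411 and 797 after WY in null mice, overlapping the controls of each strain. *Atf4*, which passed with HS in null mice only, read 324, 361 and 324 in wild-type controls, 348, 557 and 316 after HS, 226, 298 and 244 after WY and 453, 361 and 359 after WY+HS, with HS mouse 5 and WY+HS mouse 10 the highest. In null mice it read 346, 322 and 338 after WY and 359.9, 409.5 and 335 after WY+HS. *Ddit3* (CHOP), the factor tied to death under lasting ER stress, was above the floor in 2 mice, wild-type HS mouse 5 at 35.7 and WY+HS mouse 11 at 47.6. For members at the floor a change below that level was not detectable on these arrays.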

How the data were processed

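Liver RNA of 24 mice was measured, 1 mouse per array. The deposited table holds linear probe set intensities, which the authors made from scanned arrays. The study's methods name Rosetta Resolver for the array data, without settings for summarising or scaling probes. Of these values 24.1% lie at or below 0, and 42.9% lie at the floor after normalization. After quantile normalization a floor was set before log2 was taken. Planned as the 10th percentile, it came out negative (-15.7), so its size was used. Of 12488 probe sets 66 hold no value; 10833 of the 12422 tested have exactly 1 gene symbol, 396 several and 1193 none, and 12 symbols were updated through RefSeq. Groups were taken from the GEO labels and compared with limma 3.58.1 in R 4.3.3 (degrees of freedom: 16 residual, 0.39 prior), and the pipeline was tested on simulated data. Interactions are null minus wild-type changes. Percentages of control are 2 to the power of the log2 difference. The number of arrays limits the precision, and with n = 3 no group of mice was tested for outliers.

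The 38 genes, the lists of 118 other ER genes, the marker lists and the tests were chosen with earlier results of these data known. Values in every mouse were given for members called in at least 1 comparison, and for *Hspa5*, *Hsp90b1*, *Xbp1*, *Atf4* and *Ddit3*. Other ER genes were named by the smallest adjusted p, at most 4 per comparison. *Sar1b* with WY, the markers and the single members named for their extreme differences or for disagreeing probe sets were chosen after their values were seen. The alternatives were a common median, no scaling, floors of 33.9 and 3.04, an asinh scale, a filter at the 30th percentile, trend and robust moderation, array weights, a fit of only the arrays compared, the methods' test (Scheffe's post-hoc test after an F test), the mean of a gene's probe sets, and leaving out each of the 24 arrays. The medians with an array left out were added after seeing the data.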

Additional observations from a re-analysis of the deposited data

Results flagged for a closer look

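For 5 genes the HS change differed between the strains by the limma test of the difference itself. Null minus wild-type, it was -1.84 for *Pdia6*, -1.12 for *Serp1*, -1.07 for *Sec61a1*, -0.80 for *Ppib* and -0.70 for *Sec61b* on the log2 scale. By the brightest probe set all 3 null HS mice lay below all 3 null controls in each of these genes, while the wild-type HS groups had means at or above control. The dimmer set of *Sec61a1* overlapped between the null groups, and with the mean of its sets the strain difference of *Sec61a1* was -0.60 and did not pass. Of the dimmer sets of *Pdia6*, 94208_at lay below its null controls after HS. The other, 94207_at, read 94.2, 87.7 and 91.8 in null controls and 92.6, 91.2 and 65.9 after HS, with overlap. For 3 genes the WY change differed in the same kind of test, by 1.86 for *Pdia5*, 1.55 for *Xbp1* and 0.67 for *Ppib*. All 3 wild-type WY mice lay below all 3 wild-type controls in each of them.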

How the results depend on the processing

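No called change of a member turned direction under any of the 11 alternatives or with any array left out. Of the 33 called changes, 4 passed in all of these: *Pdia5* with WY, and *Pdia5*, *Ppib* and *Xbp1* with WY+HS, in wild-type mice. Without scaling 28 were lost, with only the arrays compared 20, with the methods' test 12, and with each other alternative between 0 and 4. Counts of called members moved by over 1.5 times as follows. Without scaling they were, in wild-type mice, 1 for WY and 3 for WY+HS set against WY, 0 for HS and 1 for WY+HS against HS in null mice, and 0 for the strain difference of HS and 0 for that of WY. With only the arrays compared they were 0 for HS and 1 for WY+HS against HS in null mice, and 1 for the strain difference of HS. With the methods' test they were 3 for HS, 1 for WY (*Atf6*) and 4 for WY+HS against HS in null mice. On the asinh scale the strain difference of HS gave 3, and with array weights the strain difference of WY gave 6. With each array left out in turn the counts were 3 to 10 for HS and 4 to 9 for WY+HS against HS in null mice, 5 to 6 for WY and 3 to 4 for WY+HS in wild-type mice, and 2 to 7 and 3 to 4 for the strain differences of HS and WY. The other 5 comparisons gave 0 each time. Of the called changes in these fits 197 were kept and 49 lost. The cause was not tested, except that the fit of only the arrays compared holds fewer samples. Unscaled, the median of the brighter genes moved by 0.43 with HS and 0.45 with WY in wild-type mice, and the members' median stayed 0.24 above and 0.27 below it. With WY+HS set against WY in wild-type mice the unscaled median of the brighter genes moved by -0.69 and that of the members by -0.72. No paired analysis was possible because no label ties mice of different groups to each other. Signal over background limits *Hyou1*, *Calr*, *Ssr4*, *Uggt1*, *Ddit3*, *Eif2ak3*, *Sec63* and *Atf6*, which lie at or near the floor.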
